A study of Mus musculus with 4 samples.

Results

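Mitosis is driven by cyclin-dependent kinase 1 and the kinases around it, is ended by the anaphase-promoting complex (APC/C), and is followed by cytokinesis, the physical division of the cell. A list of 49 mouse genes that regulate these steps was followed on 4 arrays, out of 18193 genes measured. A gene was taken from the list by its symbol, through probe sets that carry that symbol alone, and the probe set with the highest mean log2 signal over the 4 arrays stood for it. This mean includes the treated arrays, so that a fall lowered the rank of a probe set and the choice was not independent of the change. The list itself was drawn up with earlier results of these data known. The share of its genes that fell is therefore not independent of those results. All 49 genes were found. They fell by role into 20 kinases, cyclins, phosphatases and partners of mitotic entry, 4 FoxM1 and MuvB transcription factors, 7 core APC/C subunits, 7 regulators, enzymes and targets of the APC/C, and 11 genes of cytokinesis, the spindle and proliferating cells.

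The arrays came from lines 8534 and 8542, cultured from primary mammary tumors of female MMTV-tTA/TOP-ICN1 mice (strain FVB/N;B6). In these mice the MMTV promoter drives the tetracycline transactivator tTA in mammary epithelium, and tTA switches on human ICN1, an intracellular form of NOTCH1 that signals without ligand. Each line was left untreated (ICN1 on) or was given 2 µg/ml doxycycline for 24 hours (ICN1 off). There was 1 array per line and condition, so that n = 2 lines throughout. A limma p value rests only in part on a gene's own spread between the lines (1 residual degree of freedom). The larger part of its variance estimate is borrowed from other probe sets of like signal (6.18 degrees of freedom). Each line came from 1 tumor, and no line without the transgene was given doxycycline, so that loss of ICN1 and an action of the drug itself cannot be told apart. The NOTCH target Nrarp had a signal of 4730 units untreated and 219 units treated (line 8534), and of 4511 and 143 units in line 8542. The NOTCH targets Hey1, Heyl, Dtx1 and Myc were lower too (limma adjusted p under 0.05), by less than Nrarp. Hes1 was lower by only 1.74-fold (line 8534) and 1.32-fold (line 8542) and did not pass (limma adjusted p = 0.0579). Values are MAS5 signals in units of the scaled array, and changes are log2 differences, treated minus untreated, within a line. Because RNA was taken from whole cultures, fewer cells in mitosis and less RNA per cell cannot be told apart in any value given here.

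As background, entry into mitosis needs Cdk1 bound to a cyclin, and the kinases Wee1 and Pkmyt1 hold this complex inactive until Cdc25 phosphatases release it. Most genes of this machinery are transcribed late in the cell cycle, when the MuvB complex, joined by B-Myb (Mybl2) and then FoxM1, activates promoters that carry a cell cycle genes homology region (CHR). In resting cells the same MuvB core, with p107 or p130 and E2F4, forms the repressive DREAM complex. The APC/C, a ubiquitin ligase, then destroys cyclins and securin with the help of its activators Cdc20 and Cdh1 (Fzr1).

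Of the 49 regulators, 41 fell after 24 hours of doxycycline and none rose (limma, Benjamini-Hochberg adjusted p under 0.05). All 49 passed the filter on low signal, so that the count covers the whole list. Over all 15070 genes tested, 1047 fell, or 6.95%, and 717 rose, or 4.76%. By the study's own rule, which asks for over 2-fold in each line, 33 regulators were lower and none was higher, against 4.42% and 3.09% of all 18193 genes. The median regulator changed by -1.71 (line 8534) and -2.58 (line 8542) on the log2 scale, whereas the medians of all genes tested were 0.01 and 0.00. The 8 regulators that did not pass were Tpx2, Wee1, Fzr1 and 5 of the core APC/C subunits, Anapc1, Anapc4, Anapc7, Cdc16 and Cdc27. At an unadjusted p under 0.05 the model had 44 regulators lower and none higher, against 2119 lower and 1869 higher of the 15070 genes. These calls depended on 2 choices in the model. Without the pairing by line, or without the trend of the variance with signal, no regulator passed (lowest limma adjusted p = 0.0672 and 0.223). At an unadjusted p under 0.05 these models had 42 and 38 regulators lower, against 1322 and 1336 of the 15070 genes.

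**Figure D1:**
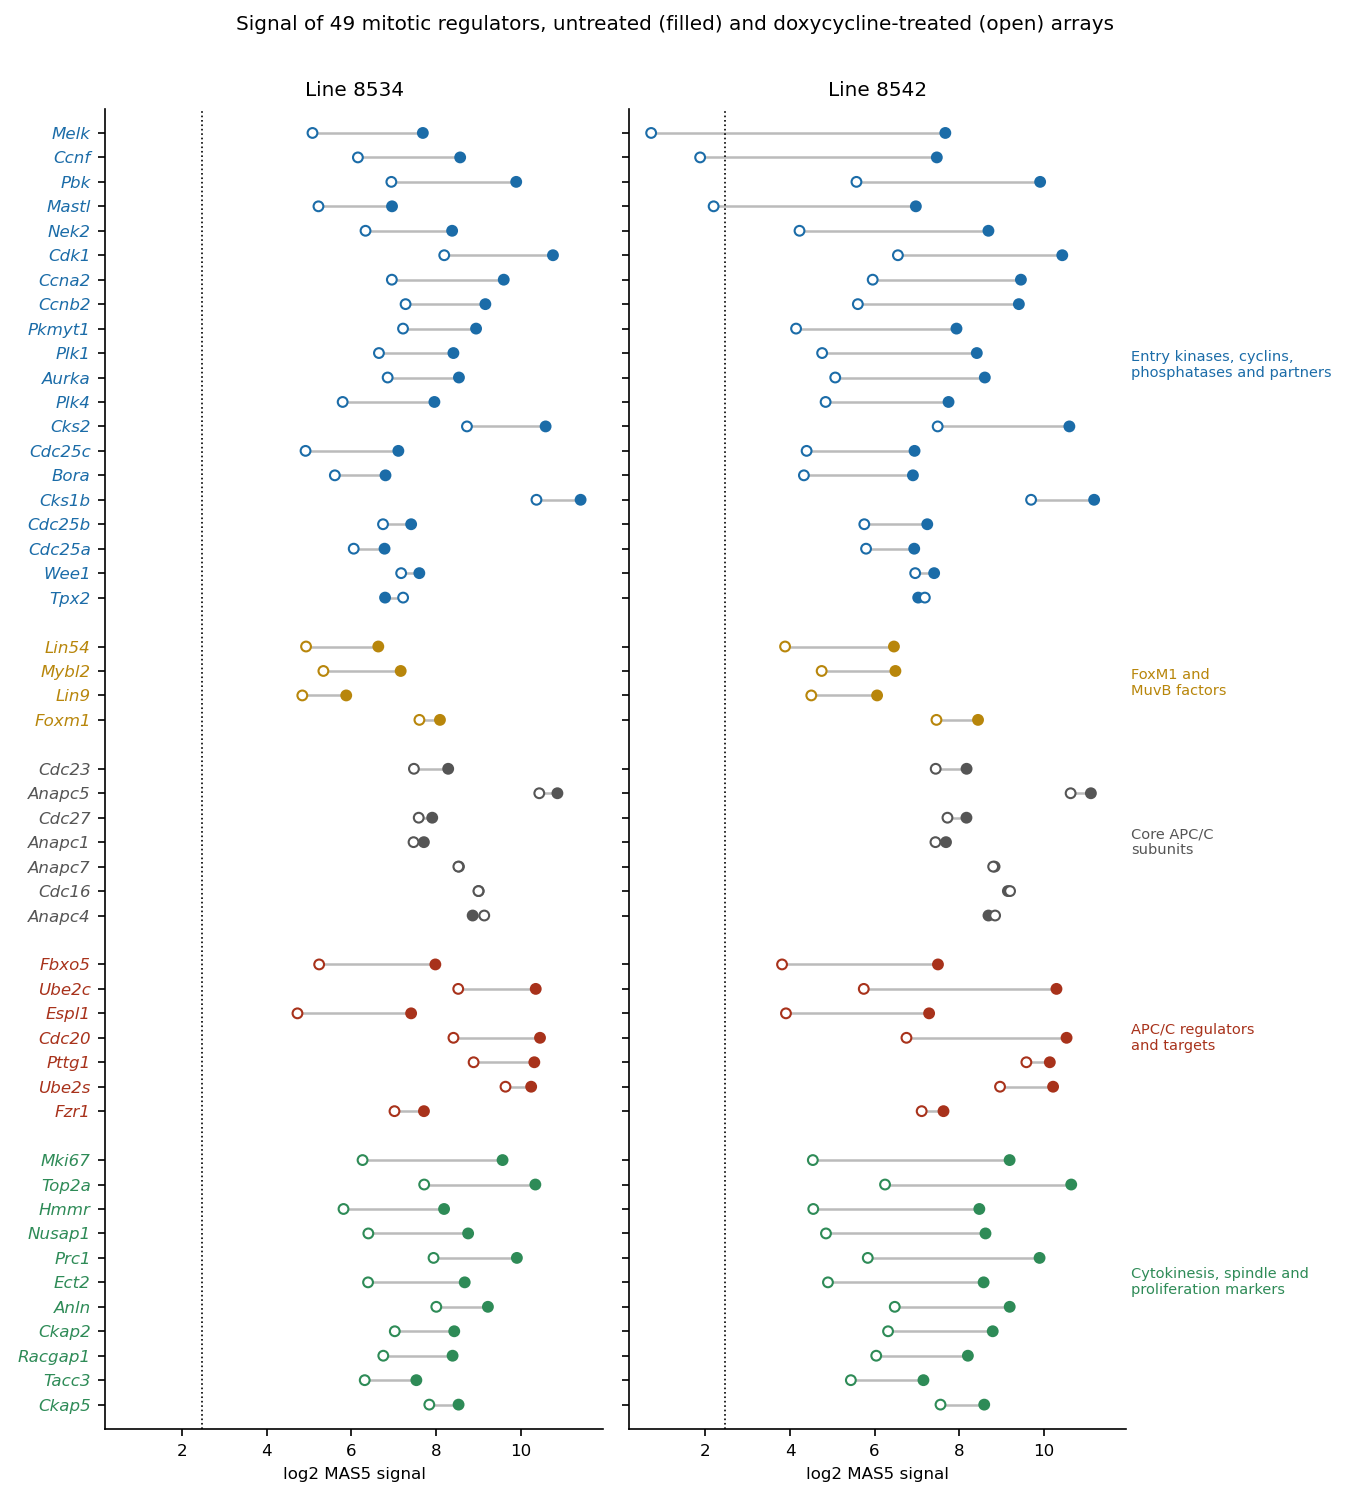
Signal of the 49 regulators on the 4 arrays, as log2 MAS5 signal on the horizontal axis, with line 8534 on the left and line 8542 on the right. Filled circles are untreated and open circles doxycycline-treated arrays (1 each), colors mark the 5 roles, and the dotted line is the 20th percentile of all values (2.47). The open circles lie left of the filled ones for nearly every gene outside the core APC/C, and those of Melk, Ccnf and Mastl in line 8542 lie under the dotted line.

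The promoters of 8 regulators are shown here because 39 of the 42 regulators outside the core APC/C fell, and because the CHR (TTTGAA) and the box of the factor NF-Y (CCAAT) are known from promoters of late cell cycle genes. Each stretch is the 120 bases before a RefSeq transcription start in GRCm38.p6, written 5′ to 3′ along the gene, with the whole matches to these letters on either strand in capitals. The first 7 belong to regulators that fell, and the last, Cdc27, to a core APC/C subunit that did not pass the test.
Cdk1 promoter, chr10:69352913-69353032, minus strand: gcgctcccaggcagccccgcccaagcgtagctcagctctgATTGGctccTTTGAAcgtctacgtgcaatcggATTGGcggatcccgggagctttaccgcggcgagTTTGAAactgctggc
Ccnf promoter, chr17:24251410-24251529, minus strand: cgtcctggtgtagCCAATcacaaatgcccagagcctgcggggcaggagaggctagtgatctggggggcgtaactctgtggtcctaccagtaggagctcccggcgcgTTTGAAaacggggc
Cdc20 promoter, chr4:118437344-118437463, minus strand: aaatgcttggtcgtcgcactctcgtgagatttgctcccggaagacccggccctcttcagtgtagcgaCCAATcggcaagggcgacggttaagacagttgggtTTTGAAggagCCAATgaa
Ube2c promoter, chr2:164769809-164769928, plus strand: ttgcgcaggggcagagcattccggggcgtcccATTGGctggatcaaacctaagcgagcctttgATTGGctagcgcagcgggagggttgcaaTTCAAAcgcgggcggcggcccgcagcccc
Espl1 promoter, chr15:102296173-102296292, plus strand: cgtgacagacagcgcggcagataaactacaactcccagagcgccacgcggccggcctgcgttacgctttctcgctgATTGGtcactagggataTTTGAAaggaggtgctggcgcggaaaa
Prc1 promoter, chr7:80294356-80294475, plus strand: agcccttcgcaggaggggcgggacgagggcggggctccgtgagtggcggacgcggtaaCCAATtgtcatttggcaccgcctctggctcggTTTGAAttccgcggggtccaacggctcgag
Top2a promoter, chr11:99024190-99024309, minus strand: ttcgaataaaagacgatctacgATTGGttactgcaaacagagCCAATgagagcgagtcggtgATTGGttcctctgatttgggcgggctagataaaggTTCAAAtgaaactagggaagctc
Cdc27 promoter, chr11:104550621-104550740, minus strand: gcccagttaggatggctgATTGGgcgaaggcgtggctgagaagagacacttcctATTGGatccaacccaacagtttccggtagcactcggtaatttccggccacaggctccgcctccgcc

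The first 7 stretches were chosen as examples with a CHR match within the last 30 bases before the start and an NF-Y box upstream of it, so that this pattern is fixed by the choice. NF-Y boxes without a CHR match, as in Cdc27, were also found in the windows of Nek2, Mastl, Cks2, Cdc25a, Cdc25b and Anapc5, which fell. RefSeq windows of 300 bases, from 250 before to 50 after the start, were given for 39 of the 49 genes (42 windows), and Ccna2, Wee1, Foxm1, Lin9, Tpx2, Bora, Pbk, Pkmyt1, Cdc25c and Cdc23 had none. A CHR match was found in 24 of these 42 windows (57.1%), against 17.9% of all 32851 windows. A match within 50 bases of the start was found in 20 of the 42 (47.6%) against 4.94%, an NF-Y box in 69.0% against 37.4%, and both motifs in 50% against 6.95%. The second form of the element, TTTAAA, which reads the same on both strands, was found in 11.9% of the regulators' windows and 13.2% of all windows. None of these motifs contains another. By role, a CHR match was present in 11 of 13 windows of the 11 cytokinesis and spindle genes, 4 of 7 of the APC/C regulators and 6 of 13 of the entry genes. It was present in 2 of 3 of the FoxM1 and MuvB factors (both windows of Lin54) and 1 of 6 of the core APC/C subunits (Anapc7). The windows of Ect2 overlap and hold the same CHR matches, as do those of Prc1, so that these matches were counted more than once. Among regulators that fell, Melk, Plk4, Mybl2, Pttg1, Ube2s, Nusap1 and Tacc3 had neither a CHR nor an NF-Y box match in their windows. These are matches of letters only, and binding was not measured.

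**Figure D2:**
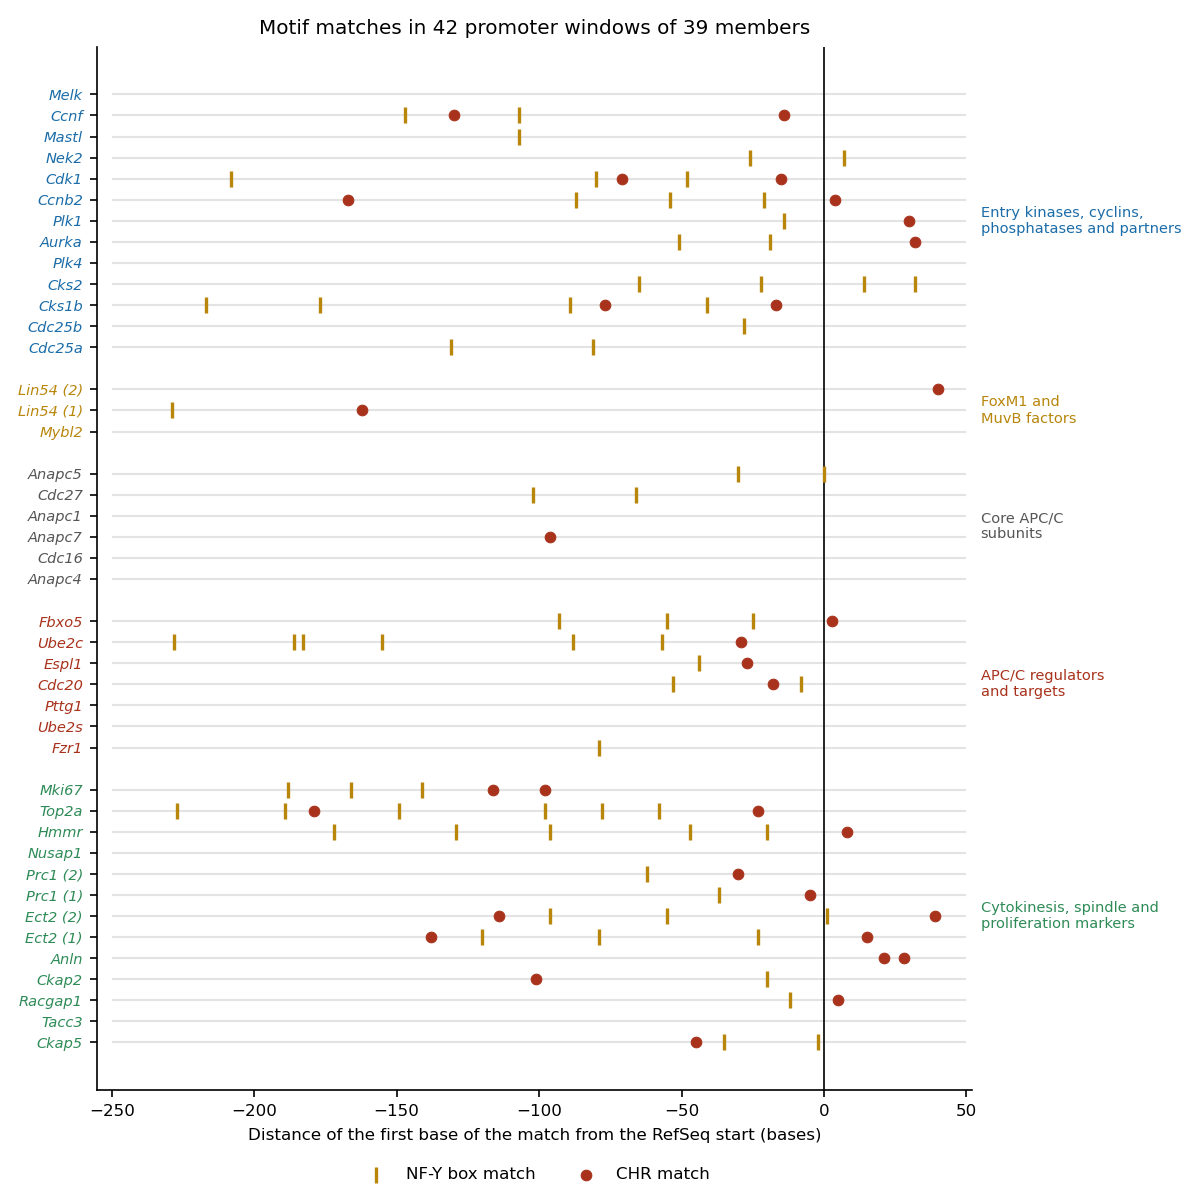
Positions of CHR matches (circles) and NF-Y box matches (ticks) in 42 promoter windows of 39 regulators, as the distance of the first base of the match from the RefSeq start in bases, with 1 row per window and a number after genes with 2 windows. Rows are grouped by role and ordered by the mean log2 change within it. CHR matches gather near the start in the cytokinesis genes, and Anapc7 alone of 6 core APC/C subunits has a match.

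Among the 20 genes of mitotic entry, 18 fell and 16 were over 2-fold lower in both lines. Their median change was -1.81 in line 8534 and -3.52 in line 8542 on the log2 scale. The kinase at the center of the group, Cdk1, had a signal of 1741 units untreated and 293 units treated (line 8534), and of 1387 and 93.8 units (line 8542). Both treated arrays lay below both untreated arrays, 5.94-fold and 14.8-fold within the lines, a mean log2 change of -3.23 ± 0.93 (SD of 2 lines; limma adjusted p = 0.00107). Its cyclins fell with it. Cyclin A2 (Ccna2), which serves S phase and G2, went from 777 to 124 units (line 8534) and from 704 to 62.0 units (line 8542) (limma adjusted p = 0.000528). Cyclin B2 (Ccnb2), a partner of Cdk1 in mitosis, went from 575 to 156 units and from 681 to 48.6 units (adjusted p = 0.0053). Cyclin B1 had no probe set of its own symbol alone and was not analysed here.

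The largest mean change of the group, -4.78 ± 3.07 on the log2 scale (SD of 2 lines; limma adjusted p = 0.0155), was that of Melk, a kinase of proliferating and progenitor cells. Melk had 206 units untreated and 33.8 units treated (line 8534), and 204 units and 1.65 units in line 8542. The untreated arrays of the lines were nearly alike, and the size of the mean rested on the treated array of line 8542, whose signal lay under the 20th percentile of all values (5.52 units). The fall there was 124-fold as measured and 36.9-fold when signals under that percentile were raised to it, whereas in line 8534 it was 6.10-fold. Cyclin F (Ccnf), an F-box protein that marks other cell cycle proteins for destruction, and Mastl (Greatwall), which restrains the phosphatase that opposes Cdk1, also ended under 5.52 units in line 8542. Their falls in that line were 48.3-fold and 27.5-fold as measured, and 32.1-fold and 22.8-fold after raising such signals. Melk and Mastl were no longer called when the moderation was made robust to outlying variances.

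Plk1, Plk4, Aurka, Bora, Nek2 and Pbk fell, with mean log2 changes from -1.89 to -3.65. Plk1, which acts at centrosomes, kinetochores and the midzone, went from 341 to 101 units (line 8534) and from 342 to 27.1 units (line 8542), a mean log2 change of -2.71 ± 1.34 (limma adjusted p = 0.0068). Aurka, the centrosomal Aurora kinase, went from 373 to 116 units and from 389.7 to 33.6 units (adjusted p = 0.00702). Bora, the cofactor through which Aurka activates Plk1, changed by -1.89, Plk4, the kinase of centriole duplication, by -2.54, and Nek2, a kinase of centrosome separation, by -3.26. Pbk, a kinase found in mitotic cells, changed by -3.65 ± 0.98, with 953 and 123 units in line 8534 and 965 and 47.6 units in line 8542 (adjusted p = 0.000891). In each of these genes both treated arrays lay below both untreated arrays. Here and for the other genes named, such separation is given as a description only, and its share over all genes tested was not counted. Another polo kinase, Plk2, which is not among the 49 regulators, changed by 0.62 and 0.13 without passing (adjusted p = 0.222). The small Cdk-binding subunits differed in size of change. Cks2 went from 1543 to 425 units and from 1558 to 180 units, a mean log2 change of -2.49 ± 0.89, and Cks1b from 2738 to 1328 units and from 2337 to 832 units, a mean log2 change of -1.27 ± 0.32.

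The kinases that add the inhibitory phosphates of Cdk1 were read differently by their probe sets. By the chosen ones, Pkmyt1, the membrane-bound inhibitory kinase, went from 494 to 149 units (line 8534) and from 245 to 17.7 units (line 8542), a mean log2 change of -2.76 ± 1.46 (limma adjusted p = 0.00833). Wee1, the nuclear one, had 195 and 145 units in line 8534 and 170 and 125 units in line 8542, a mean log2 change of -0.44 ± 0.01 that did not pass (adjusted p = 0.164). Over the mean of their probe sets neither was called, with -1.56 for Pkmyt1 (adjusted p = 0.0661) and -1.16 for Wee1 (adjusted p = 0.0738), and the second probe set of Pkmyt1 (1438601_at) changed by 0.22 and -0.93. Of the phosphatases that undo their work, Cdc25c changed by -2.37 ± 0.25 (adjusted p = 0.00181), Cdc25b by -1.08 ± 0.58 (adjusted p = 0.0339) and Cdc25a by -0.93 ± 0.29 (adjusted p = 0.038). All 3 fell, and only Cdc25c by over 2-fold in both lines. The calls of Cdc25a and Cdc25b were lost in 5 alternative analyses each, that of Cdc25c in the 2 that lost every call.

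Tpx2, which carries Aurka to the spindle and activates it, had the smallest change of the group by its chosen probe set and was measured in opposite ways by its 4 probe sets. The chosen probe set (1447518_at) had 111 and 149 units in line 8534 and 131 and 146 units in line 8542, a mean log2 change of 0.29 ± 0.19 (limma adjusted p = 0.399), and a further one (1447519_x_at) changed by 0.25. The remaining pair fell. One of them, 1428105_at, went from 205 to 46.8 units (line 8534) and from 275 to 16.9 units (line 8542) (mean log2 change -3.08, adjusted p = 0.00479), and the other, 1428104_at, from 267 to 97.8 units and from 266 to 22.8 units (-2.50, adjusted p = 0.0133). Both of these had more signal than the chosen probe set on the untreated arrays, and ranked below it through their treated arrays. The direction of Tpx2 therefore depended on the probe set, and its mean over all 4 was -1.26.

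All 4 transcription factors of the FoxM1 and MuvB group fell, 3 of them by over 2-fold in both lines. Their median change was -1.37 in line 8534 and -1.65 in line 8542, and their mean changes ran from -2.14 to -0.73 on the log2 scale. Lin54, the MuvB subunit that binds the CHR, had 99.5 units untreated and 30.4 units treated (line 8534), and 87.9 and 14.8 units in line 8542. Treated and untreated arrays did not overlap, and its mean change of -2.14 ± 0.61 (SD of 2 lines; limma adjusted p = 0.00628) was the largest of the group by the chosen probe sets. Over the mean of probe sets the call of Lin54 was lost (-1.14, adjusted p = 0.0675), whereas Mybl2 changed by -2.65 and Foxm1 by -2.24. Both of these means include signals under 5.52 units. In Mybl2 this was 1454946_at, which went from 37.2 to 0.86 units in line 8534 and was not called (limma adjusted p = 0.0738). Mybl2, the B-Myb protein that turns MuvB into an activator, went from 144 to 40.5 units and from 90.1 to 26.9 units, 3.55-fold and 3.35-fold lower (adjusted p = 0.00396). Lin9, a scaffold subunit of MuvB, changed by -1.30 ± 0.37 (adjusted p = 0.0351), a call lost without the filter on low signal (adjusted p = 0.0740) and over the mean of its probe sets (-0.82, adjusted p = 0.188).

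Foxm1, the activator that joins MuvB in G2, changed least by its chosen probe set (1448833_at), which had 273 and 195 units in line 8534 and 349 and 176 units in line 8542. Its treated arrays lay below its untreated arrays, and the mean log2 change of -0.73 ± 0.35 passed narrowly (limma adjusted p = 0.0424), a call lost without the filter on low signal and after quantile normalization (adjusted p = 0.0689 and 0.0717). Its other tested probe sets fell by more. That with suffix x, 1417748_x_at, went from 136 to 28.6 units and from 100.2 to 34.0 units (-1.90, adjusted p = 0.00539), and 1448834_at from 102 to 2.81 units and from 90.9 to 2.42 units (-5.20, adjusted p = 0.00141), the treated signals of the latter lying under 5.52 units. The size of the Foxm1 change thus ranged over its probe sets, while its direction in these 3 did not.

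The core subunits of the APC/C stood apart in their counts. Of 7 subunits 2 fell, none was over 2-fold lower in both lines, and the median change was -0.24 in line 8534 and -0.25 in line 8542. Over the 42 regulators outside this group, 39 fell and the medians were -1.79 and -3.25. Cdc23, a scaffold subunit with tetratricopeptide repeats, had the largest change, with 313 and 178 units in line 8534 and 289 and 174 units in line 8542. Both treated arrays lay below both untreated ones, a mean log2 change of -0.77 ± 0.06 (SD of 2 lines; limma adjusted p = 0.0202). The call was lost over the mean of its probe sets (-0.40), and its only plain probe set changed by 0.08. Anapc5, a subunit of the platform, went from 1873 to 1391 units and from 2216 to 1589.9 units, a mean log2 change of -0.45 ± 0.04 (adjusted p = 0.0399), and its other 5 probe sets were lower in both lines too, 4 of them called. The call of the chosen probe set was lost in 5 alternatives, with no filter (adjusted p = 0.0804), after quantile normalization (0.0714) and median centring (0.0512), and in the 2 that lost every call.

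Cdc16, another subunit with tetratricopeptide repeats, had 516 and 513 units in line 8534 and 569 and 589 units in line 8542, a mean log2 change of 0.02 ± 0.04 (limma adjusted p = 0.945). Anapc7, also of the repeat family, had 373 and 369 units and 457 and 447 units, a mean log2 change of -0.02 ± 0.01 (adjusted p = 0.944), and a second probe set of it changed by -0.81 and -1.51 without passing (adjusted p = 0.0969). Cdc16 and Anapc7 thus differed between conditions by at most 1.04-fold in both lines by their chosen probe sets. Anapc1, the largest platform subunit, changed by -0.25, Cdc27, a coactivator-binding subunit, by -0.38, and Anapc4, also of the platform, by 0.22 on the log2 scale, none of them called. Whether the core subunits changed less than the other groups was not tested, because genes are not replicates of a condition.

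**Figure D3:**
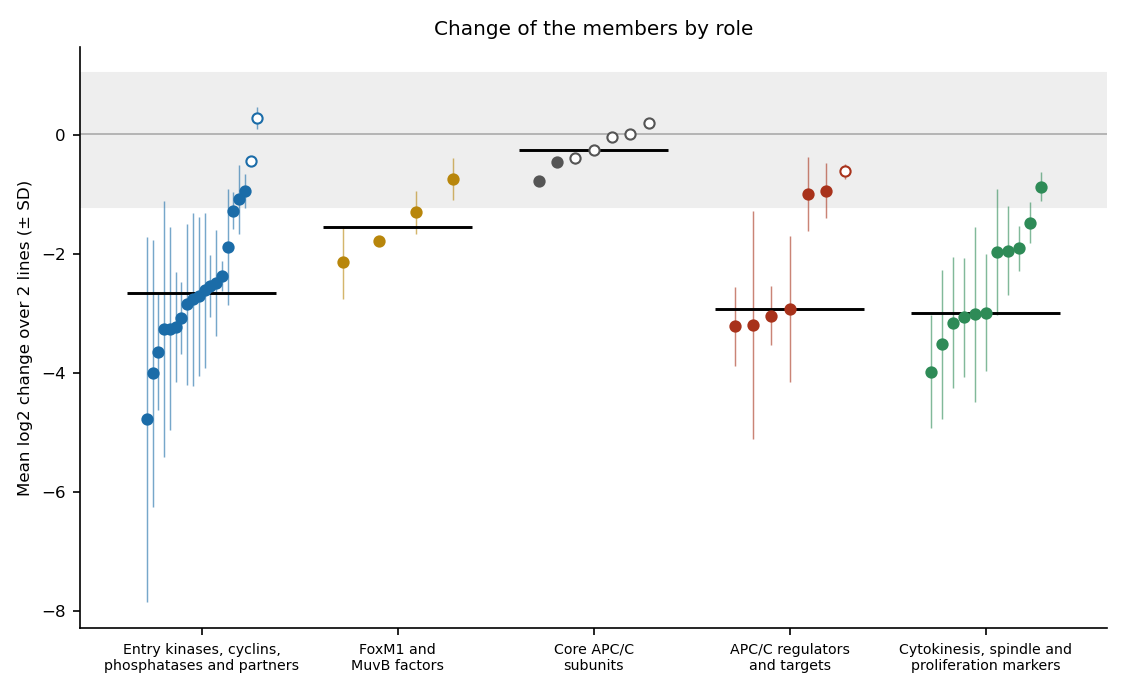
Mean log2 change over the 2 lines, treated minus untreated, for each regulator by role, with bars of 1 SD. Filled circles were called by limma and open circles were not, black lines are the medians of the groups, and the grey band holds the middle 90% of all genes tested (-1.21 to 1.04). All 7 core APC/C subunits lie inside the band, and most genes of the other groups lie below it.

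The factors that work on the APC/C behaved otherwise than its core. Of 7, 6 fell and 4 were over 2-fold lower in both lines, with medians of -1.83 and -3.38. Fbxo5 (Emi1), the inhibitor that holds the APC/C back until mitosis, had 253 units untreated and 37.7 units treated (line 8534), and 181 and 14.1 units in line 8542. The groups did not overlap, and its mean log2 change was -3.22 ± 0.66 (SD of 2 lines; limma adjusted p = 0.00107). Cdc20, the activator of early mitosis, went from 1408 to 341 units and from 1488 to 108 units, 4.13-fold and 13.8-fold lower (adjusted p = 0.00323). Fzr1 (Cdh1), the activator of late mitosis and G1, had 210.2 and 129.7 units and 198 and 138 units, a mean log2 change of -0.61 ± 0.13 that did not pass (adjusted p = 0.0668; 0.0471 with the filter at the 50th percentile). The activators thus differed in size of change within each line, and the difference was not tested.

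The ubiquitin-conjugating enzymes of the complex showed a like contrast. Ube2c, which starts ubiquitin chains, went from 1313 to 369 units (line 8534) and from 1261 to 53.6 units (line 8542) (mean log2 change -3.19 ± 1.93, limma adjusted p = 0.0111). Ube2s, which extends them, was lower 1.52-fold (line 8534) and 2.39-fold (line 8542) (-0.93 ± 0.46, adjusted p = 0.0153). The genes of the proteins whose fate the APC/C decides at anaphase both fell and differed in size of change, a difference that was not tested. Separase (Espl1), the protease that cuts cohesin, went from 170.3 to 26.5 units and from 156 to 15.0 units (-3.04 ± 0.49, adjusted p = 0.00115). Securin (Pttg1), its inhibitor, went from 1283 to 474 units and from 1131 to 770.0 units, 2.70-fold and 1.47-fold lower (-0.99 ± 0.62, adjusted p = 0.0243). Securin was called in the main model, yet lost its call in 5 alternative analyses.

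All 11 genes of cytokinesis, the spindle and proliferating cells fell, 10 of them by over 2-fold in both lines, with medians of -1.97 and -3.68 on the log2 scale. Mki67, the Ki-67 protein that coats mitotic chromosomes and marks cycling cells, had 762 units untreated and 76.9 units treated (line 8534), and 585 and 23.3 units in line 8542. The treated arrays lay 9.92-fold and 25.1-fold below their untreated partners, a mean log2 change of -3.98 ± 0.95 (SD of 2 lines; limma adjusted p = 0.000612). Top2a, which untangles sister chromatids, went from 1305 to 211 units and from 1606 to 76.0 units (-3.52 ± 1.25, adjusted p = 0.00181). Prc1, the bundler of midzone microtubules, went from 964 to 246 units and from 956 to 57.2 units (-3.02 ± 1.48, adjusted p = 0.00545).

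Ect2, Racgap1 and Anln, which act at the cleavage furrow, fell. Ect2, the exchange factor that activates RhoA, changed by -2.98 ± 0.99, Racgap1, its partner at the midzone, by -1.90 ± 0.37, and Anln, a scaffold of the contractile ring, by -1.97 ± 1.06. The spindle proteins Hmmr and Nusap1 changed by -3.15 ± 1.10 and -3.07 ± 1.00, and Ckap2 by -1.94 ± 0.76. The limma adjusted p of these 6 genes ran from 0.00173 to 0.00953. By the chosen probe sets the smallest falls were those of Ckap5 and Tacc3, which act together on microtubule ends. Tacc3 changed by -1.47 ± 0.35 (adjusted p = 0.00638), and by -3.21 and -1.90 in its other probe sets. Ckap5, the polymerase it recruits, had 371 and 229.5 units in line 8534 and 386 and 189 units in line 8542, which did not overlap, and changed by -0.86 ± 0.24 (adjusted p = 0.0153).

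The log2 change was lower in line 8542 than in line 8534 for 44 of the 49 regulators (89.8%), against 7500 of the 15070 genes tested (49.8%). The fall was larger in line 8542 for 38 of the 41 regulators that were called (92.7%), against 658 of the 1006 other genes called lower (65.4%). In line 8542, 21 regulators were over 10-fold lower, and in line 8534 none was, against 129 and 56 of the 15070 genes tested. The untreated arrays of the lines were close, with a median difference of line 8542 minus line 8534 of -0.03 on the log2 scale over the 49 genes, and 2 regulators were over 2-fold lower in line 8542. On the treated arrays the median difference was -0.99, and 24 regulators were over 2-fold lower in line 8542 and none higher. Over all 15070 genes tested these medians were 0.02 and 0.00. Line 8542 was over 2-fold lower than line 8534 in 1084 of them and higher in 793 on the untreated arrays, and in 1167 and 775 on the treated arrays. The order of the changes was alike in the lines, with a correlation across the 49 genes of r = 0.88 (rho = 0.87), against r = 0.52 across all genes tested, given as descriptions since genes share the same 4 arrays. The regulators whose change was lower in line 8534 were Pttg1, Mybl2, Fzr1, Cdc23 and Cdc16. Whether the lines differed in their response could not be tested, because 1 array per line and condition leaves no spread for it.

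**Figure D4:**
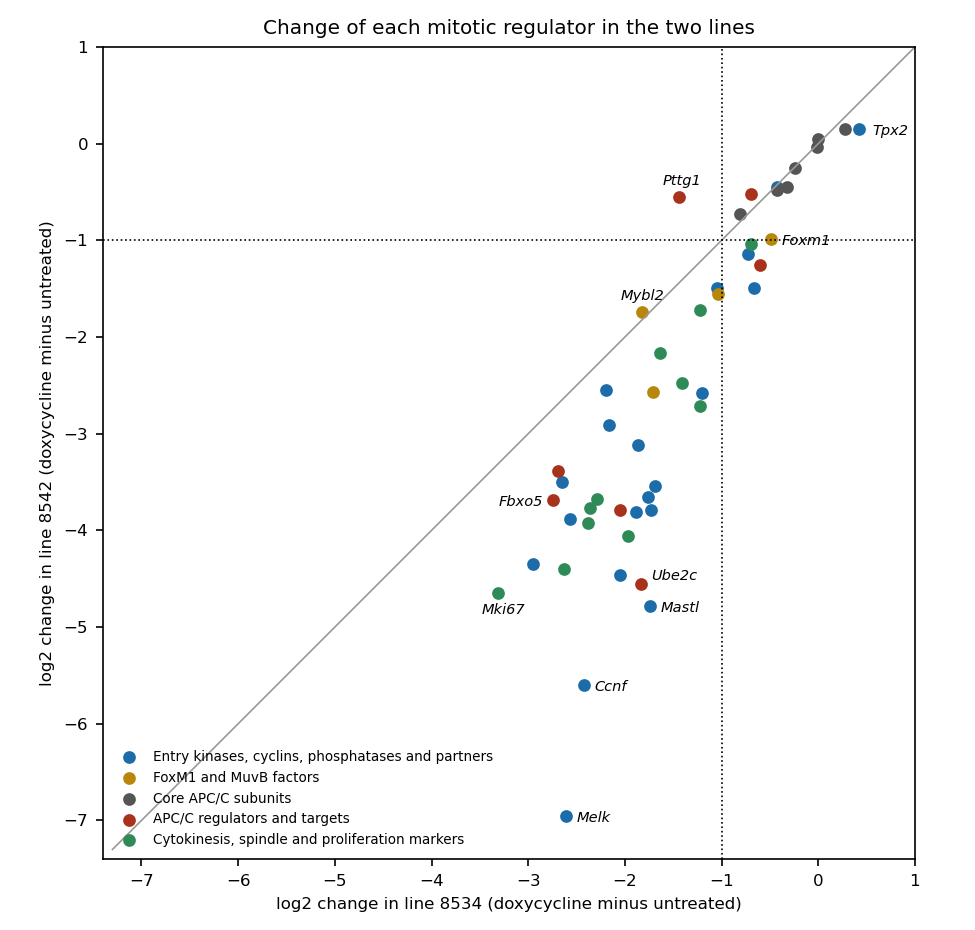
Log2 change, treated minus untreated, of each regulator in line 8534 (horizontal axis) and line 8542 (vertical axis), colored by role, with 1 array per line and condition. The diagonal marks equal change and the dotted lines a 2-fold fall. Of the 49 points 44 (89.8%) lie below the diagonal, against 49.8% of all genes tested, and the core APC/C subunits lie near the origin.

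Probe sets other than the chosen ones gave a second reading of 36 regulators on the same arrays. There were 64 of them, 56 passed the filter, 30 were called lower and none higher. The share called over all 33778 probe sets tested was not counted. Over the 15070 genes tested, 6.95% were called lower and 4.76% higher. Racgap1 changed by -1.90 by its chosen probe set and by -3.22 by another (1421546_a_at, limma adjusted p = 0.00137), and Tacc3 by -1.47 and by -3.21 (1417450_a_at, adjusted p = 0.00567). A second probe set of Wee1 (1416774_at) went from 103 to 60.3 units (line 8534) and from 108 to 13.4 units (line 8542), and did not pass (adjusted p = 0.0551). Pttg1 read by 1424105_a_at was 2.51-fold and 2.13-fold lower (adjusted p = 0.00279), so that its smaller fall in line 8542 by the chosen probe set was slight in this one. Which of the transcripts each probe set reads was not examined.

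**Figure D5:**
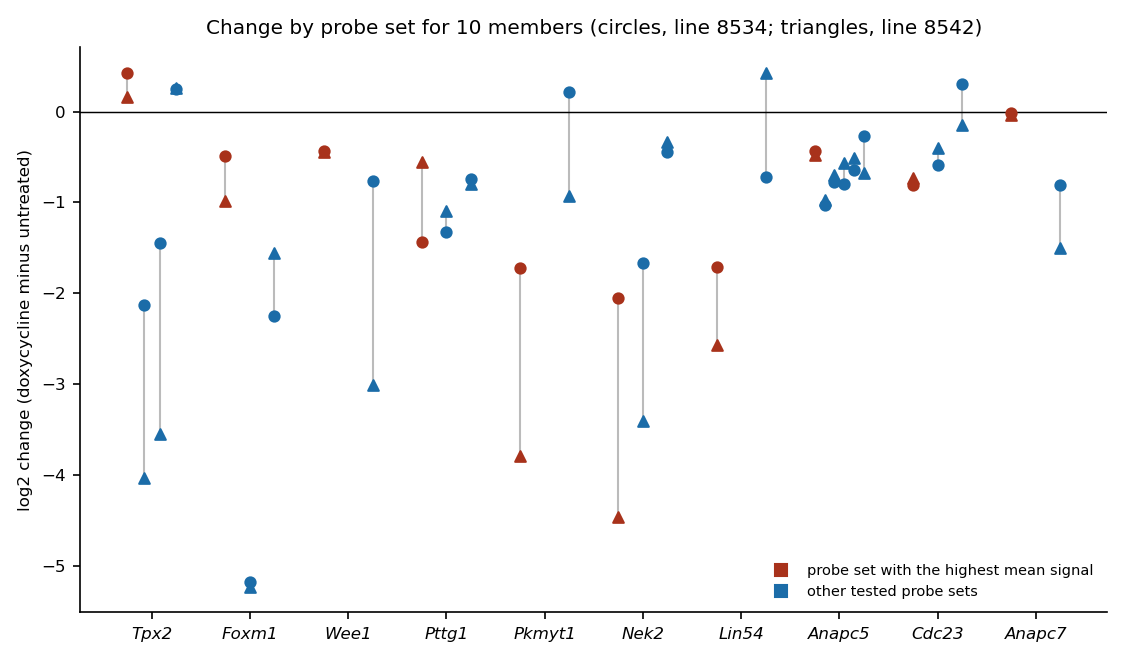
Log2 change, treated minus untreated, of every tested probe set of 10 regulators, with circles for line 8534 and triangles for line 8542 (1 array per line and condition) joined by a line. Red marks the probe set with the highest mean signal, which stands for the gene, and blue the others. The probe sets of Tpx2 lie on both sides of 0, and those of Foxm1 run from -0.73 to -5.20 in their means.

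A list of 49 other mitotic genes, none of them among the regulators above, had 48 on the array and 46 tested, of which 20 fell and 1 rose. This list too was drawn up with earlier results of these data known. The falls were mostly in 1 sub-list. Of 16 other cytokinesis and spindle genes 15 fell, with medians of -1.99 and -3.64, and the exception, the furrow kinase Cit, changed by 0.27 (limma adjusted p = 0.346). Shcbp1, a midbody protein, went from 235 to 36.5 units (line 8534) and from 229 to 4.55 units (line 8542) (mean log2 change -4.17, adjusted p = 0.00665). Its treated signal in line 8542 lay under 5.52 units, a fall of 50.4-fold as measured and 41.5-fold after raising it to that level. Birc5 (survivin), of the chromosomal passenger complex, went from 884 to 127 units and from 1137 to 37.8 units (-3.85, adjusted p = 0.00225). Of 13 other entry genes 2 fell. These were Aurkb, the passenger kinase (-2.78, adjusted p = 0.0019), and Ppp2r2a, the B55 subunit of the phosphatase that Mastl restrains (-0.56, adjusted p = 0.0491). Nek7, a kinase that acts at the spindle poles, rose from 477 to 695 units and from 461 to 686 units (0.56, adjusted p = 0.0332), a call lost in 4 of the alternatives.

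Of 10 other MuvB, DREAM and E2F-partner genes 2 fell, with log2 changes of -2.03 for Rbl1 (p107) and -1.07 for Tfdp1 (DP1) (limma adjusted p = 0.00247 and 0.00533). Of 7 other core APC/C subunits 1 fell, the RING subunit Anapc11, from 833 to 518 units (line 8534) and from 1214 to 749 units (line 8542) (-0.69, adjusted p = 0.0119), and the sub-list's medians were -0.30 and -0.17.

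The markers of the labelled tissue were present on all arrays, with Krt8 between 3467 and 7165 units and Epcam between 1663 and 3003 units. Of the leukocyte markers, Ptprc lay between 6.08 and 7.20 units, and Csf1r, the highest of them on every array, between 102 and 123 units. The summed signal of 6 leukocyte markers ranged from 171 to 200.1 units, and that of 7 fibroblast markers was 847 and 1103 units in line 8534, untreated and treated, and 163 and 164 units in line 8542. Fibroblast and endothelial marker sums thus differed between the lines or arrays (136 to 271 units for 6 endothelial markers), while the regulators were lower in both lines, and the part of these other cells in the results was not tested. Of 6 luminal markers Krt8, Krt18 and Cldn7 were called higher and Krt19 lower (1.76-fold and 1.90-fold), while Epcam and Cdh1 were not called. The endothelial marker Tek was called lower (7.09-fold and 2.61-fold), and the part of these changes was not tested either. The 3′ to 5′ log2 difference of the actin control was 0.25 to 0.30 on the 4 arrays.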

How the data were processed

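RNA of 4 cultures was labelled and hybridized to Affymetrix mouse genome arrays. The authors ran MAS5 on the scans, and the deposited values are log2 of its scaled signals. Base 2 was read from the values, since it gave 2% trimmed means of 97.7 to 102 units. The version of MAS5 and its scaling target were not given in the sources used here. The values cover 45101 probe sets, more than the A version of the array named in the methods. After 64 control probe sets were left out, 34945 carried 1 gene symbol, 932 several and 9160 none. limma 3.58.1 (R 4.3.3) was fitted with terms for line and treatment to the 33778 probe sets with a mean log2 signal of 2.94 (the 25th percentile) or more, using eBayes with an intensity trend and adjusting p by Benjamini-Hochberg over all of them. It left 1 residual degree of freedom, to which moderation added 6.18, and its code was checked on simulated data. Line was the block, since treated and untreated cells of a pair are the same line, and their arrays deviated together (r = 0.36).

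The members and lists were chosen with earlier results of these data known. All members were accounted for, and signals on every array were given at least for the genes with the largest and smallest mean change of each role and, of the other mitotic genes, values for the called ones with the 2 largest changes per sub-list and any called in the other direction. Promoter letters were counted in RefSeq windows of GRCm38.p6. A planned count of protein motifs was not made, since no protein sequences were used here. Alternatives changed the filter, scaling, floor, pseudocount, probe set rule, block and variance model.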

Additional observations from a re-analysis of the deposited data

Results flagged for a closer look

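Some probe sets changed in opposite directions in the lines, a difference that was not tested since each line had 1 array per condition. Given as the log2 change of line 8542 minus that of line 8534, the only chosen probe set among them was that of Cdc16 (0.0593, changes of -0.01 and 0.05 in lines 8534 and 8542). The others were further probe sets of regulators. The difference was 0.88 for Anapc1 1417570_at, -0.34 for Cdc16 1431291_at, -0.46 for Cdc23 1443087_at and 0.26 for Cdc27 1426076_at among the core APC/C subunits. It was -2.48 for Aurka 1440129_at, -1.15 for Pkmyt1 1438601_at, -3.26 for Foxm1 1437138_at, 1.15 for Lin54 1458582_at, -1.66 for Ube2s 1430962_at and -4.77 for Ckap5 1430647_at. Of these 11 probe sets, those of Aurka, Foxm1 and Ckap5 and the second of Cdc16 lay under the filter on low signal.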

How the results depend on the processing

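The count of regulators that fell (41) stayed between 31 and 42 under filters on level, quantile normalization, median centring, a floor, a pseudocount, other probe set rules and robust moderation. No regulator was called higher in any alternative, with none at an unadjusted p under 0.05 in the main model. The count was 0 with no replicate block (the pairing by line left out) and 0 with no intensity trend, where the other mitotic genes that fell also came to 0. The 1 other mitotic gene that rose, Nek7, came to 0 under these 2, with no filter and with the mean over probe sets. The 2-fold rule gave 27 to 33 regulators. It gave 34 and 37 when 1 line was left out, where it asks for a fall in the other line alone and so cannot give fewer. Some regulators, Pbk, Cdc25b and Cdc25c among them, had no plain probe set and could not be counted under that rule. The median of the core APC/C subunits (-0.25) was -0.19 after quantile normalization, -0.25 after median centring and -0.24 with the pseudocount. It was -0.19 over the mean of probe sets and -0.0238 over plain probe sets. By the same probe set rules the median of the cytokinesis genes (-2.98) was -2.20 and -1.95. That of the entry genes (-2.66) was -2.42 and -2.71, and that of the APC/C regulators (-2.92) was -2.95 and -2.63. For FoxM1 and MuvB (-1.54) it was -1.69 and -1.54. Leaving out a line gave the group medians of the line kept. These were -3.52 and -1.81 for the entry genes, -1.65 and -1.37 for FoxM1 and MuvB, and -0.25 and -0.24 for the core APC/C. For its regulators they were -3.38 and -1.83, and for cytokinesis -3.68 and -1.97. Signs turned for Tpx2 over the mean of probe sets (-1.26), Anapc7 after quantile normalization (0.0142), and, with plain probe sets, Cdc16 (-0.0044), Cdc23 (0.0775) and Ube2s (0.74), the last 3 being read there by another probe set. For the other results that changed the cause was not tested. A limma fit without 1 line could not be fitted, since no residual degrees of freedom remain. The number of arrays limits the precision of every value, and signals under 5.52 units limit the folds of Melk, Ccnf, Mastl and Shcbp1 in line 8542. Such signals also enter some means over probe sets, those of Mybl2 and Foxm1 among them.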
